A study of Mus musculus with 319 samples.

Results

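Slow-twitch muscle fibres build their sarcomeres from their own isoforms of contractile and regulatory proteins, and 6 genes for such isoforms are described here: Myl2, Myl3, Tnnt1, Tnni1, Tnnc1 and Tpm3. Members were all probes whose symbol in the platform's probe-to-gene table is 1 of these names. The rule found 9 of 23382 probes, which covered 5 of the 6 genes. Tpm3 had 5 probes, and Myl2, Tnnt1, Tnni1 and Tnnc1 had 1 each. Myl3 had no probe under its symbol or its gene ID and was not measured here. All 9 probes had a value on every array and none reached the limits of the deposited scale, so the filter, which kept the 23190 probes measured on 80% of arrays or more, removed no member.

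Muscle RNA of F2 mice was hybridised on 319 arrays, each labelled with an animal number. The labels hold 318 distinct numbers, since 2 arrays carry number 227 (r 0.540 between them over probes), and some of their text speaks of 330 mice. In the deposited order 1 of these 2 arrays stands among animals numbered 271 to 359, and both were placed at 227 here. The animals descend from C57BL/6J and C3H/HeJ parents, all on an ApoE null background, include both sexes, and ate a high-fat Western diet from week 8 to week 24 of age. Each animal's RNA carried Cy3 and was read against a Cy5 pool of equal portions of all samples, so a value is a log2 ratio of the animal to that pool and not a level. The labels name neither the muscle taken nor any group, genotype or batch. The animal number, from 1 to 359, is the only quantity given for all animals, so by the labels all arrays form 1 group. No labelled groups were compared, and the spans of number and marker splits compared below were formed here.

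In the thin filament, calcium binds troponin C, which relieves the block that troponin I sets on myosin binding, while troponin T ties the troponin complex to tropomyosin along the actin strand. Myosin carries a regulatory and an essential light chain on the neck of each head. In slow fibres these parts are Tnnc1 (troponin C, shared with heart), Tnni1 (slow troponin I), Tnnt1 (slow troponin T), the slow alpha-tropomyosin made from Tpm3, and the light chains Myl2 (regulatory) and Myl3 (essential), which are also those of the heart ventricle. The Tpm3 gene also makes cytoplasmic tropomyosins of non-muscle cells from a start inside the gene.

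The genes lie on different chromosomes of the mouse assembly GRCm38.p6: Tnni1 on chromosome 1, Tpm3 on 3, Myl2 on 5, Tnnt1 on 7 and Tnnc1 on 14, with Myl3 on 9. RefSeq's promoter table held 9 start windows for the 6 genes. The 250 bases before the start are shown for Tnnt1 (chr7:4515976-4516225, minus strand) and Tnnc1 (chr14:31208062-31208311, plus strand), the pair of members that varied most alike, and for the upstream start (chr3:90072401-90072650, plus strand) and the internal start (chr3:90079271-90079520, plus strand) of Tpm3, the gene whose probes varied differently from each other. Capitals mark the E-box CANNTG, the MCAT motif CATTCC and the NFAT motif GGAAA, searched on both strands.
Tnnt1: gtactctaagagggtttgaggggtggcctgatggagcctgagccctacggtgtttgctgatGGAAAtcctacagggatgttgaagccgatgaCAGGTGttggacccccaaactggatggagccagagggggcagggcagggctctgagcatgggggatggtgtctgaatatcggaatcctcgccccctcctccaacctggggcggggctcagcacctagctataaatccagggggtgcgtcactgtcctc
Tnnc1: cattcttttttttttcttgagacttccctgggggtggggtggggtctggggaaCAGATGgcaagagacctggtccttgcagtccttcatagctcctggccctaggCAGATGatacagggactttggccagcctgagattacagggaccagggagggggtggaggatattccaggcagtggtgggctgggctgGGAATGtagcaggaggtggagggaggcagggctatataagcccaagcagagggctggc
Tpm3 upstream start: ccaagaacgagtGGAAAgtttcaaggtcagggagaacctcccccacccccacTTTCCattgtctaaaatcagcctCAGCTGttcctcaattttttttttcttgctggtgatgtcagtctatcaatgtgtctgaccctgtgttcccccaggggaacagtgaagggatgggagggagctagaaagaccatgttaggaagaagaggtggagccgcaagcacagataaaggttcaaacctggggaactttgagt
Tpm3 internal start: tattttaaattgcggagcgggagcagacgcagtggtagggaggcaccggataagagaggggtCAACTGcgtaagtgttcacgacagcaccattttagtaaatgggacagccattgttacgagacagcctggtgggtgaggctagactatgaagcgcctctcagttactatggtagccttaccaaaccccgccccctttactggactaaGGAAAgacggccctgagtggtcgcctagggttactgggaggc
An E-box was found in 9 of the 9 member windows, against 66.2% of 32841 windows of the same length. The 9 windows belong to 6 genes, and those of Tnni1 share 160 bases, so they are not separate observations. GGAAA was found in 4 of 9 against 55.6%, CATTCC in 2 of 9 against 12.6%, and the CArG box in 1 of 9 (Myl3) against 1.47%. The MEF2 motif was in none of the 9 windows and in 2.92% of all windows. The starts of Tpm3 lie 6870 bases apart. These matches describe letters only, and the files do not say which transcript of Tpm3 each of its probes reads.

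The direction of the ratio came from Y-linked Eif2s3y, which had a median of -5.62 on 164 arrays and 1.08 on 155, near the 1.04 that a pool with that share of carriers gives, so values above 0 are read as an excess of the animal over the pool. Correlations between members do not depend on it. Correlations of whole arrays, over 50721 pairs, ran from -0.603 to 0.848 (median 0.270), and 3753 pairs were under -0.3. The labels state the dyes, so the direction was kept. The SD of an array's ratios ran from 0.21 to 1.08.

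Some arrays were high in genes of other cell types. The mean log2 ratio of 10 lymphocyte genes ranged from -2.51 to 1.87 and of 8 keratinocyte genes from -0.92 to 2.52. That of 9 neutrophil genes ranged from -1.72 to 3.08. The mean z score of each list was split at the largest sum of squares between sides, with 56, 30 and 36 arrays above the split. Such a split is called a gap here, and it need not be an empty interval. In all, 97 arrays lay above at least 1 of these gaps and 222 below all of them. Of the muscle's own defining genes Tcap, Ttn and Myog were measured, Ckm, Neb, Mb and Actn2 had values on 31.7%, 48.0%, 75.9% and 34.2% of arrays, and a ratio to a pool of the same tissue cannot show whether such a gene is present.

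The members differed widely in spread, and the split ran through Tpm3. Over 319 arrays the Tnnt1 ratio reached from -4.56 through a median of -0.38 to 1.62, with an SD of 1.26. Tnnc1 reached from -4.49 through -0.41 to 1.54 (SD 1.26), and Myl2 from -4.65 through -0.36 to 1.62 (SD 1.20). Tpm3 probe 10024408920 spread as widely, from -5.52 through -0.34 to 1.84 (SD 1.29). These 4 probes had SDs above those of 98.8% to 99.1% of tested probes, whose median SD was 0.23. Tnni1 (SD 0.89, from -2.76 through -0.38 to 1.49) and Tpm3 probe 10024393599 (SD 0.78, from -2.28 through -0.27 to 1.46) spread less, above 97.2% and 96.2% of probes. The remaining Tpm3 probes stayed near the pool: 10024404523 had an SD of 0.33, 10024399225 of 0.30 and 10024404657 of 0.15, the last below the median of all probes.

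Between the 5th and the 95th percentile of arrays, Tpm3 probe 10024408920 spanned 20.9-fold, Tnnt1 20.7-fold, Tnnc1 20.0-fold and Myl2 17.9-fold. Tnni1 spanned 7.68-fold and Tpm3 probe 10024393599 spanned 6.27-fold, while the other Tpm3 probes spanned 1.35- to 2.01-fold. The wide distributions leaned to the low side. Skewness was -0.94 for Myl2, -0.85 for Tnnt1, -0.88 for Tnnc1 and -1.14 for Tpm3 probe 10024408920, but -0.23 for Tnni1 and -0.16 for Tpm3 probe 10024393599, against a median of 0.10 over all probes. A log2 ratio under -2 was seen on 46 arrays for Tnnc1, 44 for Tnnt1, 44 for Tpm3 probe 10024408920, 37 for Myl2, 18 for Tnni1 and 5 for Tpm3 probe 10024393599. No empty interval divided the arrays: the largest step between neighbouring sorted values was 0.35 for Tnnt1 and 0.30 for Tnnc1. The narrow Tpm3 probes 10024399225, 10024404523 and 10024404657 leaned the other way, with skewness of 1.24, 0.59 and 1.04. In RNA from whole muscle, fewer slow fibres and less slow isoform RNA per fibre cannot be told apart.

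**Figure D1:**
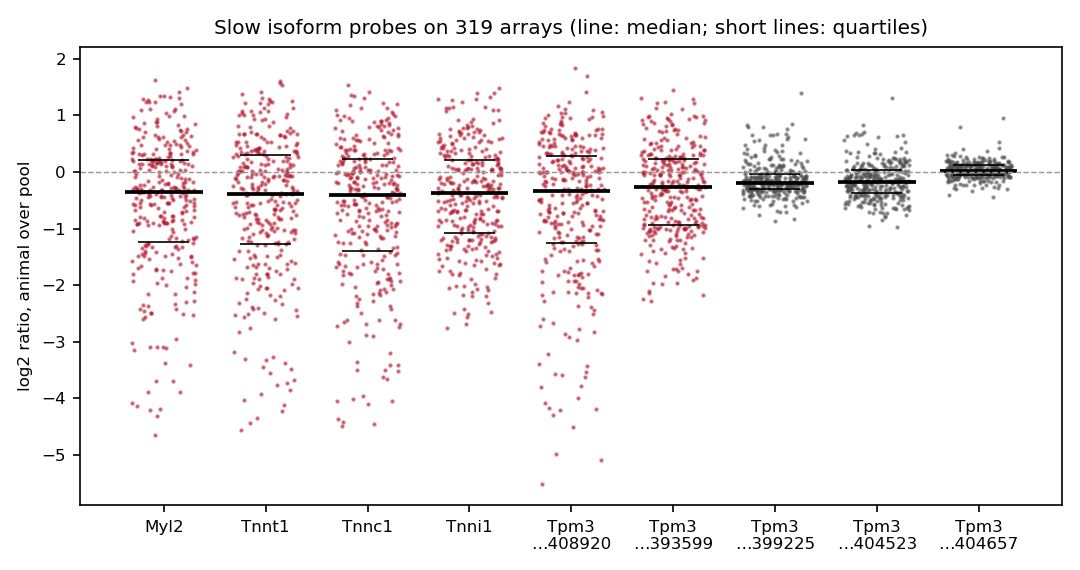
Log2 ratio of each member probe on each of 319 arrays (points), with the median (long line) and quartiles (short lines); Tpm3 probes are named by the last 6 digits of their ID. Tnnt1, Tnnc1, Myl2 and Tpm3 probe 10024408920 reach below -4, while the 3 probes on the right (grey) stay within about 1 unit of the pool on most arrays.

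Tnnt1, Tnnc1, Tnni1, Myl2 and 2 of the 5 Tpm3 probes rose and fell together from animal to animal. These 6 probes were grouped after their values were seen, so their group values are a description. Their 15 pairwise r ran from 0.905 to 0.988 with a mean of 0.948. All 6 lay below the pool on 170 arrays and above it on 86, and they were mixed on 63. The animal with the lowest Tnnt1 ratio, number 284, had -4.56 for Tnnt1, -4.49 for Tnnc1, -4.20 for Myl2 and -5.52 for Tpm3 probe 10024408920, but -2.03 for Tnni1 and -1.75 for Tpm3 probe 10024393599. On the same array Tpm3 probes 10024399225, 10024404523 and 10024404657 read -0.36, -0.36 and -0.09. The animal with the highest Tnnt1 ratio, number 157, had 1.62 for Tnnt1, 1.62 for Myl2, 1.69 for Tpm3 probe 10024408920 and 0.99 for Tnnc1.

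The closest pair was slow troponin T with troponin C. For Tnnt1 and Tnnc1, Pearson's r was 0.988 (95% Fisher interval 0.985 to 0.990) and Spearman's rho 0.983, and without the 2 arrays farthest from the median r was 0.987. Tnnt1 with Tpm3 probe 10024408920 followed at r = 0.984 (rho 0.980) and Tnnt1 with Myl2 at 0.975 (rho 0.970). The intervals of these first 2 pairs, 0.985 to 0.990 and 0.980 to 0.987, overlap. Tnni1 was closest to Tpm3 probe 10024393599 (r = 0.957, rho 0.957) and had r of 0.943 with Tnnt1, 0.941 with Tnnc1 and 0.920 with Myl2. In a permutation test over arrays of 100000 resamples, two-sided, each of these pairs reached p = 1e-05, the smallest the test can give, with a Benjamini-Hochberg adjusted p of 4.74e-05 over the 1610 relations of members with each other, with listed genes and with the next array. The permutation test, the Fisher intervals and the limma fits below take arrays as independent, though arrays of neighbouring number had like values of these probes. The members were chosen with earlier results of these data known, so these p-values lend the set no independent support. Over gene means, with the 5 Tpm3 probes averaged as set out for the design, the 10 pairs had a mean r of 0.946. The mean r of a gene with the others was 0.964 for Tnnt1, 0.961 for Tnnc1, 0.944 for Myl2, 0.931 for Tpm3 and 0.930 for Tnni1.

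The other Tpm3 probes did not share this pattern. With Tnnt1, r was 0.110 (rho 0.141, adjusted p of r by permutation 0.106) for probe 10024399225, 0.088 (rho 0.101, adjusted p 0.219) for 10024404523 and -0.115 (rho -0.098, adjusted p 0.088) for 10024404657. Their 95% intervals, which reach no higher than 0.217 and no lower than -0.222, lie far from the 0.984 of probe 10024408920 with Tnnt1. Of the 18 relations between these 3 probes and the 6 wide ones, 1 passed by r at an adjusted p under 0.05, that of 10024399225 with Tnnc1 (r = 0.135, adjusted p 0.040). By rho 7 passed, 4 for 10024399225 and 3 for 10024404523, with rho from 0.130 to 0.158. Between themselves 10024399225 and 10024404523 had r = 0.812 (rho 0.764), and neither followed 10024404657 (r = -0.031 and 0.101, adjusted p 0.725 and 0.145). The platform table gives the same accession, X53753, for 10024393599 and for these 3 probes, and AF317223 for 10024408920, so the accession does not divide the probes as their values do.

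**Figure D2:**
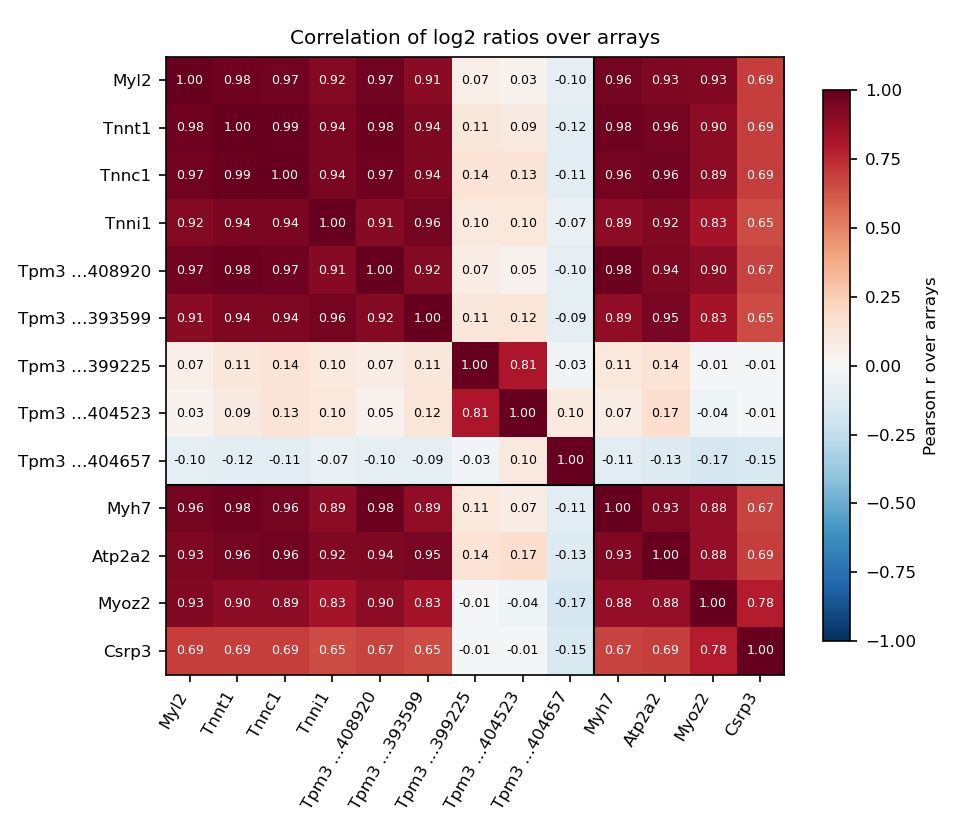
Pearson r over arrays between the 9 member probes and, beyond the black lines, Myh7, Atp2a2, Myoz2 and Csrp3. The first 6 probes form a block between 0.91 and 0.99, and Tpm3 probes 10024399225 and 10024404523 form a pair of their own at 0.81.

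The wide probes did not all scale alike. Against Tnnt1, a least-squares line had a slope of 0.987 (SE 0.009) for Tnnc1, 1.01 (SE 0.010) for Tpm3 probe 10024408920 and 0.929 (SE 0.012) for Myl2, but 0.668 (SE 0.013) for Tnni1 and 0.580 (SE 0.012) for Tpm3 probe 10024393599. The last 2 curves flattened where Tnnt1 was low. In a quadratic fit the slope of Tnni1 was 0.845 (SE 0.019) where Tnnt1 equals the pool and 0.382 (SE 0.027) at a Tnnt1 ratio of -3. For Tpm3 probe 10024393599 it was 0.752 (SE 0.017) and 0.303 (SE 0.024). Tnnc1 kept 0.965 (SE 0.015) and 1.02 (SE 0.021), and Tpm3 probe 10024408920 went the other way, from 0.901 (SE 0.016) to 1.19 (SE 0.023). The SEs take arrays as independent. Rank correlation, which ignores curvature, put Tnni1 (rho 0.969) and Tpm3 probe 10024393599 (rho 0.965) about as close to Tnnt1 as Myl2 (rho 0.970). Signal over background is not in the deposited values, so whether a floor of the measurement bends these curves was not tested.

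**Figure D3:**
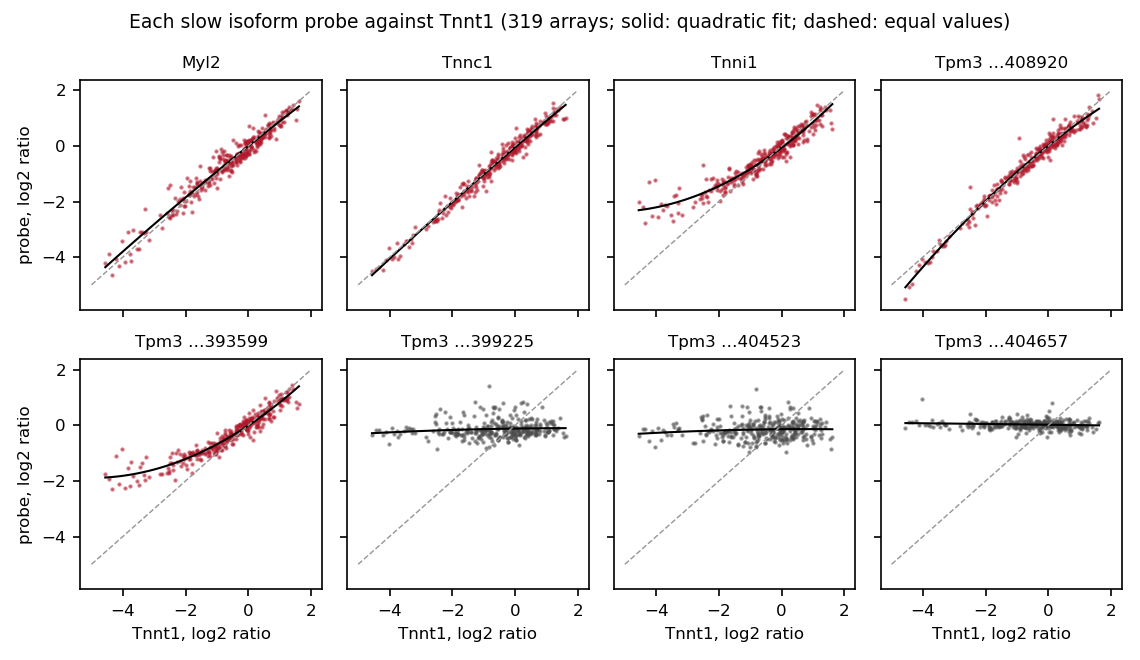
Log2 ratio of each other member probe (vertical) against Tnnt1 (horizontal) on 319 arrays, with a quadratic fit (solid) and the line of equal values (dashed); Tpm3 probes carry the last 6 digits of their ID. Myl2, Tnnc1 and Tpm3 probe 10024408920 lie along the dashed line, Tnni1 and Tpm3 probe 10024393599 bend above it at low Tnnt1, and the other 3 Tpm3 probes are flat.

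Few transcripts outside the set had a strong correlation with it. Likeness was the mean r of a gene with the 5 measured members. Over 10750 genes its median was -0.011, and 31 genes were above 0.5 and 4 above 0.8. Of 9624 probes with no gene name, 19 were above 0.5 and 3 above 0.8, the highest at 0.933. Atp2a2, the slow and cardiac calcium pump of the sarcoplasmic reticulum, came first (0.943), then Myh7, the slow and cardiac myosin heavy chain (0.942 over 286 arrays), and Myoz2, a Z-disc protein that binds calcineurin (0.873). Atp2a2 had an SD of 1.05, Myh7 of 1.39 and Myoz2 of 0.78. Ift81, a protein of transport in cilia, was next at 0.818 with an SD of 0.43. The Z-disc protein Pdlim1 (0.741), the carboxylesterase Ces5a (0.740), the signalling inhibitor Spred2 (0.686), the cytochrome P450 Cyp2c29 (0.671), the muscle LIM protein Csrp3 (0.670), Ndrg4 (0.664), the heart-type lactate dehydrogenase subunit Ldhb (0.650) and the LIM protein Fhl2 (0.644) completed the 12 genes of highest likeness. For Tnnt1, Tnnc1 and Myl2 the 3 closest genes were Myh7, Atp2a2 and Myoz2, with r from 0.892 to 0.976. For Tnni1 they were the same genes at 0.923 (Atp2a2), 0.893 (Myh7) and 0.834 (Myoz2), and for the Tpm3 mean Ift81 (0.850) came next after Atp2a2 and Myh7. Atp2a2 is also 1 of the 20 measured genes nearest to Myl2 on chromosome 5.

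Opposite correlations were weaker. Over all arrays the lowest likeness belonged to Tiam1, an exchange factor for Rac (-0.506), the only gene below -0.5. Rab40b (-0.451), Dkk3, a secreted protein of the Dickkopf family (-0.432), the RNA-binding protein Cpeb1 (-0.427), the T-box factor Tbx1 (-0.422), the sodium-calcium exchanger Slc8a1 (-0.409), Sorbs2 (-0.409) and the growth factor binding protein Igfbp5 (-0.405) followed. On the arrays below the marker gaps the order of these genes differed. There Rab40b had -0.565, Tbx1 -0.523, Sorbs2 -0.509 and Tiam1 -0.508, and the others lay above -0.5.

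Counts over the whole table rest on the same correlations as likeness, so they add no separate support. In limma fits of every other tested probe on a member, an absolute r above 0.5 was reached by 67 probes (0.289%) for Tnnt1, of which 65 were positive. The counts were 70 (0.302%) for Myl2, 63 (0.272%) for Tnni1, 63 (0.272%) for Tnnc1, 64 (0.276%) for Tpm3 probe 10024408920 and 59 (0.254%) for 10024393599. At an adjusted p under 0.05 far more passed: 23.3% of probes for Myl2, 18.0% for Tnnc1, 14.3% for Tnnt1 and 11.6% for Tnni1. The Tpm3 probes 10024399225 and 10024404523 had far more followers. An absolute r above 0.5 was reached by 5408 probes (23.3%) for the first, 3487 of them negative, and by 4899 (21.1%) for the second, while 10024404657 had none at that size. At limma's adjusted p under 0.05 these 3 probes had 77.9%, 79.7% and 8.24%, the mean of the 5 Tpm3 probes had 41.9%, and 10024408920 and 10024393599 had 20.5% and 13.8%.

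Other genes of slow fibres mostly moved with the members. Of 16 listed genes 10 were measured, and 8 of them rose with Tnnt1 at limma's adjusted p under 0.05 and none fell, against 1635 rising and 1681 falling of 23189 probes (14.3% in all). The list was chosen with earlier results of these data known, so these counts are a description. The median r of the list with Tnnt1 was 0.604. With Tnnt1, r was 0.976 for Myh7, 0.959 for Atp2a2, 0.898 for Myoz2, 0.693 for Csrp3, 0.608 for Ankrd2, a stretch-responsive titin-binding protein, 0.601 for the LIM protein Fhl1, 0.477 for the cardiac and slow calsequestrin Casq2 and 0.315 for the tropomyosin Tpm2. Ankrd1 (r = -0.013) and the tubulin Tuba8 (r = -0.131, adjusted p 0.102) did not pass limma's threshold, though Tuba8 did by permutation (adjusted p 0.048). For Myl2, Tnni1 and Tnnc1 8 of 10 rose as well, with 0, 0 and 1 falling.

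The fast-fibre counterparts could hardly be set beside them. Tnnt3, the fast partner of Tnnt1, had values on 22 of 319 arrays (6.90%), Mylpf (fast regulatory light chain) on 29 (9.09%), Tnni2 on 30 (9.40%) and Tnnc2 on 85 (26.6%), and Myl1 and Tpm1 had no probe by symbol. Tnnc1 and Tnnc2 had r = -0.028 on the 85 shared arrays (rho -0.094, adjusted p by permutation 0.886), and Tnni1 and Tnni2 had r = 0.031 on 30 (rho 0.084, adjusted p 0.934). No source used here says why these values are blank. Of 17 listed fast genes 2 were measured. Casq1, the fast calsequestrin, had r = -0.174 with Tnnt1 (limma's adjusted p 0.017, rho -0.122), and Myoz3 had r = -0.062, which did not pass. On the 222 arrays below the marker gaps, Casq1 had r = -0.255, and on the other 97 it had 0.092.

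Correlations of Tnnt1 with sarcomere genes used by all fibres, and with metabolic genes, were mostly weak. With Tnnt1, 14.3% of all tested probes passed, 1635 rising and 1681 falling, and the counts in this paragraph stand beside that share. Among 9 probes of 8 pan-muscle sarcomere genes 3 rose and 1 fell with Tnnt1: the actin nucleator Lmod2 had r = 0.606, 1 of 2 probes of the giant spring protein titin (Ttn) had 0.319, the titin cap Tcap had 0.209, and the pointed-end capper Tmod1 had -0.258. Among 21 regulators of fibre type 4 rose and 2 fell. The nuclear receptor Ppara (r = 0.446), the coactivators Ppargc1a (0.346) and Ppargc1b (0.296), and the myogenic factor Myog (0.207) rose, while the T-box factor Tbx15 (-0.280) and the transcriptional cofactor Eya1 (-0.254) fell. Tbx15 had -0.469 on the 222 arrays below the marker gaps and 0.053 on the other 97. For 15 probes of 12 genes of fatty acid uptake and oxidation 7 rose and none fell, led by lipoprotein lipase Lpl (0.493 over 286 arrays). Glycolysis and glycogen genes had a median r of -0.024 over 66 probes, with 1 rising and 2 falling, and oxidative phosphorylation genes had a median r of 0.072 over 5 probes, with 2 rising. Among cardiac and developmental isoforms 1 of 6 probes rose, the cardiac troponin T Tnnt2 (0.242), a share near that of all probes, and the atrial peptide Nppa had r = -0.00.

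On the 222 arrays below the gaps the Tnnt1 median was -0.39 and on the 97 above one it was -0.27, while Tpm3 probe 10024408920 had -0.41 and -0.08. The 15 r among the 6 wide probes ran from 0.909 to 0.991 on the first and from 0.899 to 0.977 on the second. On the 222 arrays the median r with Tnnt1 was 0.048 for lymphocyte, -0.047 for macrophage, 0.115 for keratinocyte, -0.065 for neutrophil, 0.053 for adipocyte, 0.094 for endothelial and 0.023 for erythroid genes. Brown adipocyte genes had 0.117, and heart genes 0.031. The 222 arrays were selected for low lymphocyte, keratinocyte and neutrophil scores. That selection cut the range of those lists, so their r there cannot show their relation to Tnnt1 over all arrays. Marker lists of smooth muscle and nerve stood higher. Smooth muscle genes had a median of 0.347 there (5 of 5 positive, from 0.285 to 0.485) and 0.171 on the 97 arrays, and 3 nerve and Schwann cell genes had 0.221 and -0.007. On the 222 arrays, 4198 of 23189 probes followed Tnnt1 at limma's adjusted p under 0.05, 2089 rising and 2109 falling. Over all arrays, 5 of 6 smooth muscle probes rose with Tnnt1, where 14.3% of all probes passed in either direction: Smtn (0.503 for 1 probe and -0.076 for the other), Cnn1 (0.371), Acta2 (0.275), Myh11 (0.231) and Tagln (0.229). The mean log2 ratio of the 5 smooth muscle genes ranged from -1.63 to 0.97 over arrays. The part of these cells in the members' values was not tested.

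Of the narrow Tpm3 probes, 10024399225 and 10024404523 correlated with macrophage, adipocyte and smooth muscle genes. On the 222 arrays, probe 10024399225 had a median r of 0.403 with 13 macrophage genes (12 positive), 0.403 with 4 adipocyte genes (4 positive) and 0.444 with 5 smooth muscle genes (4 positive). With 10 lymphocyte genes it was 0.048, but the selection of these arrays cut the range of that list. With 5 oxidative phosphorylation genes probe 10024399225 had -0.241 and was negative for all 5, and with the 10 other slow fibre genes 0.151. These signs stand beside a high background. Over all arrays 18068 of 23189 probes followed this probe at limma's adjusted p under 0.05, 6221 rising and 11847 falling. The share on the 222 arrays is not given here. On the 97 arrays above a gap the median r of probe 10024399225 was 0.617 with lymphocyte and 0.587 with macrophage genes. The level of the probe moved too, from a median of -0.24 (SD 0.17) on the 222 arrays to 0.02 (SD 0.41) on the 97. Probe 10024404523 went from -0.21 (SD 0.25) to 0.01 (SD 0.42) and had a median r of 0.227 with macrophage, 0.313 with adipocyte and 0.395 with smooth muscle genes on the 222 arrays. Whether RNA of those cells makes up the signal of these probes was not tested. Probe 10024404657 had a median r between -0.094 and 0.018 with every list on the 222 arrays.

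**Figure D4:**
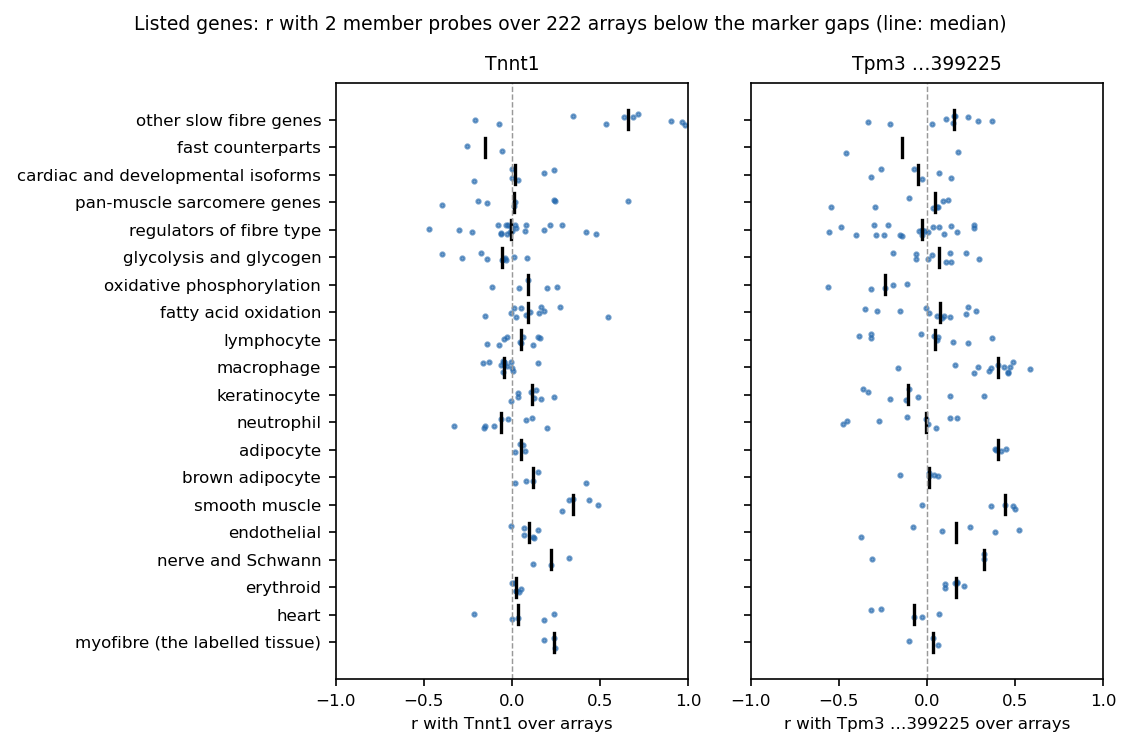
Pearson r of each measured listed gene (points; line, median of the list) with Tnnt1 (left) and with Tpm3 probe 10024399225 (right) over the 222 arrays below the marker gaps. Other slow fibre genes reach 0.980 with Tnnt1, and macrophage, adipocyte and smooth muscle genes have medians of 0.403 to 0.444 with the Tpm3 probe. The selection of these arrays cut the range of the lymphocyte, keratinocyte and neutrophil lists.

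Animals of neighbouring number had like values of the wide probes. The r between an array and the next in animal order was 0.529 for Tpm3 probe 10024408920, 0.527 for Myl2, 0.525 for Tnnt1, 0.511 for Tnnc1, 0.486 for Tnni1 and 0.471 for Tpm3 probe 10024393599, each with adjusted p of 4.74e-05 by permutation over 318 pairs. These values lay above those of 99.7% to 99.9% of 20457 probes with a value on all arrays, whose median was 0.100. The other Tpm3 probes had 0.118, 0.102 and 0.085, and none passed. No source used here says what the order of the animal numbers stands for.

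Low values were most frequent in 1 stretch of numbers, and the part of that stretch in the likeness was not tested. In 4 spans of number, 1 to 90 (81 arrays), 91 to 180 (67), 181 to 270 (86) and 271 to 359 (85), the Tnnt1 median was -0.23, 0.15, -1.21 and -0.37. Its lowest, median and highest values among animals 181 to 270 were -4.44, -1.21 and 1.57, so the spans overlap widely, and 29 of the 44 arrays under -2 lay there. Tnnc1 had medians of -0.18, 0.17, -1.30 and -0.46, Myl2 of -0.26, 0.18, -1.14 and -0.42, and Tpm3 probe 10024408920 of -0.24, 0.19, -1.20 and -0.29. The smaller swings of Tnni1 (-0.18, 0.05, -0.96 and -0.34) and Tpm3 probe 10024393599 (-0.16, 0.15, -0.86 and -0.23) had the same order. Spread also grew: the SD of Tnnt1 was 0.87, 0.91, 1.58 and 1.07. Finer blocks of 30 numbers placed the fall between 151 to 180 (Tnnt1 median 0.15) and 181 to 210 (-1.56), with -1.13 and -1.08 in the blocks after it. Later blocks had -0.51 (271 to 300), -0.54 (301 to 330) and -0.29 (331 to 359), and the block 31 to 60 had -0.39. With arrays above a marker gap left out the Tnnt1 medians were -0.12, 0.13, -1.53 and -0.34.

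A limma F test over the 4 spans, which takes arrays as independent, gave an adjusted p of 4.78e-10 for Tnni1, 7.08e-10 for Tnnc1, 9.33e-10 for Tnnt1, 2.84e-09 for Myl2, and 8.75e-10 and 7.27e-07 for Tpm3 probes 10024408920 and 10024393599. It also passed for 35.0% of all 23190 tested probes, so passing is common here. The spans were set as a factor after the values were seen. Over means of 10 neighbouring arrays Tnni1 (adjusted p 0.030) and Tnnc1 (0.048) passed and Tnnt1 (0.052), Myl2 (0.060) and Tpm3 probes 10024408920 (0.060) and 10024393599 (0.087) did not, against 8.72% of probes. Of the narrow Tpm3 probes, 10024404523 passed in both forms (0.0009 and 0.014), 10024399225 only over arrays (0.017 and 0.151) and 10024404657 in neither (0.705 and 0.891). Leaving out the 97 arrays, 10024404523 (0.086) and 10024399225 (0.280) no longer passed over arrays, while the wide probes did.

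A straight line described this poorly. Per 100 animals, limma's slope was -0.21 for Tnnc1 (adjusted p 0.011), -0.20 for Myl2 (0.010), -0.19 for Tnnt1 (0.020), -0.17 for Tnni1 (0.003), -0.17 for Tpm3 probe 10024408920 (0.044) and -0.10 for 10024393599 (0.059, not passed). Narrow Tpm3 probes also fell and passed: 10024404523 at -0.060 (limma's adjusted p 0.004) and 10024399225 at -0.044 (0.025). Probe 10024404657 did not pass (-0.006, 0.621). Trends passed for 30.6% of all probes and falling ones for 11.8%. Over means of 10 arrays none of the 9 member probes passed, with adjusted p from 0.055 to 0.637.

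The members stayed tied within each span. The 15 r among the 6 wide probes ran from 0.887 to 0.971 in the first span, 0.906 to 0.981 in the second, 0.908 to 0.993 in the third and 0.892 to 0.984 in the fourth. Genes outside the set moved over the spans too: the Myh7 medians were -0.34, 0.04, -1.62 and -0.54 and those of Atp2a2 were -0.27, -0.01, -1.32 and -0.48. Of the marker lists, smooth muscle had medians of -0.08, -0.07, -0.39 and -0.34 and adipocyte of -0.12, -0.38, -0.85 and -0.80. Nerve and Schwann cell genes had 0.09, -0.22, -0.34 and -0.34, erythroid genes 0.02, -0.25, -0.35 and -0.28, and brown adipocyte genes -0.48, -0.54, -0.69 and -0.70, whereas the measured fast genes Casq1 and Myoz3 together had 0.00, 0.10, 0.13 and 0.09. Of the 97 arrays above a marker gap, 39 lay in the first span, against 16, 23 and 19 in the others. With those arrays left out, adipocyte genes had -0.60, -0.53, -0.98 and -0.91. Brown adipocyte genes then had -0.69, -0.54, -0.74 and -0.74, and nerve genes -0.12, -0.17, -0.37 and -0.38. Smooth muscle genes had -0.02, -0.07, -0.38 and -0.32, erythroid genes -0.01, -0.24, -0.38 and -0.37, and the fast genes 0.08, 0.12, 0.15 and 0.10. The part of these lists in the members' pattern was not tested.

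**Figure D5:**
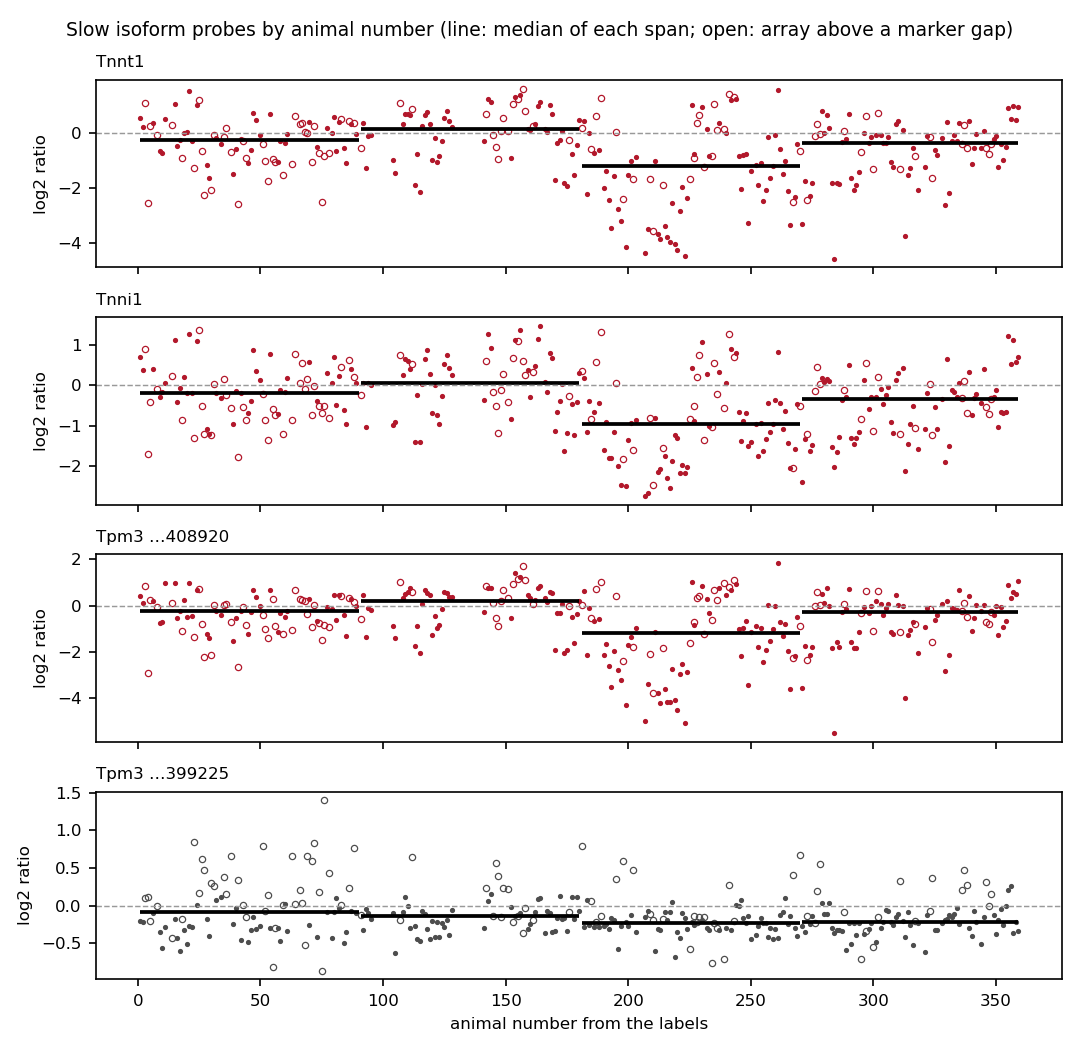
Log2 ratio (vertical) of Tnnt1, Tnni1 and Tpm3 probes 10024408920 and 10024399225 by animal number (horizontal), with the median of each span (line); open points are the 97 arrays above a marker gap. In the upper 3 panels low values gather between numbers 181 and 270, where the Tnnt1 median is -1.21, and the lowest panel has span medians from -0.23 to -0.09.

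Little was left of a member once the others were taken out. After regression on the mean z score of the other measured members, 2.31% of the variance of Tnnt1 remained, 2.95% of Tnnc1, 7.27% of Myl2, 10.3% of the Tpm3 mean and 10.6% of Tnni1. With the Tpm3 probe of largest SD in place of the mean, 1.37% remained of Tnnt1, 2.97% of Tnnc1, 5.32% of Myl2, 5.11% of Tpm3 and 12.1% of Tnni1. With the mean, the remainders had SDs of 0.19, 0.22, 0.32, 0.14 and 0.29, and many probes followed them at limma's adjusted p under 0.05: 54.2% for Tnnt1, 46.5% for Tnnc1, 66.9% for Myl2, 74.6% for the Tpm3 mean and 30.7% for Tnni1. With the Tpm3 probe of largest SD in place of the mean, the shares were 33.2% for Tnnt1, 67.9% for Tnnc1, 54.3% for Myl2, 43.3% for Tpm3 and 17.6% for Tnni1. With the 97 arrays left out the counts fell from 12570 to 2606 for Tnnt1 and from 7125 to 554 for Tnni1. With the mean, the probes of smallest p were Alpk3, a muscle kinase-like protein (r = 0.476), Vdac1 (0.459) and Crat (0.458) for Tnnt1, Gas5 (-0.433), the satellite cell factor Pax7 (0.389) and Slc28a2 (-0.355) for Tnni1, Trp53i13 (-0.584), Bnip2 (0.573) and Ehmt2 (-0.572) for Tnnc1, Pip5kl1 (0.576), Zbtb14 (0.570) and Jpt1 (-0.565) for Myl2, and Eif2ak3 (0.731), Adcy7 (0.716) and Tor1a (0.707) for the Tpm3 mean. These names depend on how Tpm3 is taken: with its probe of largest SD they were Med15 (0.467), Macroh2a1 (0.458) and Wiz (0.456) for Tnnt1, Rpl9 (0.707 and 0.697 for its probes) and Snrpd1 (0.698) for Tnnc1, and Rplp0 (-0.440), Rps2 (-0.435) and Zfp273 (-0.434) for Tpm3. Pip5kl1 for Myl2 (0.445) and Gas5 for Tnni1 (-0.357) were named both ways. Among the 20 measured genes nearest to each member on its chromosome, 29 of 33 probes (87.9%) followed the remainder of Myl2, 14 of 21 (66.7%) that of Tnnt1, 11 of 20 (55.0%) that of Tnnc1, 20 of 26 (76.9%) that of Tpm3 and 6 of 20 (30.0%) that of Tnni1, to be read against the shares over all probes above.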

How the data were processed

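RNA of muscle was compared with a common pool on 2-colour arrays, per the labels. The authors deposited 1 log10 ratio of animal to pool per probe and array. The log base and the direction were derived from the values, which end at -2 and 2, and from Y-linked genes. Background correction, normalization and the treatment of blanks before deposit are stated in no source used here. The deposited values were multiplied by a constant to give log2 ratios. Probes take names from the platform annotation, matched by gene ID to the RefSeq table of GRCm38.p6 (12647 probes named). Of 23382 probes, 192 with values on under 80% of arrays were not tested, and 0.654% of values were blank. Arrays have no count of molecules, so their number limits the precision, and each array was taken as 1 animal.

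Fits used limma 3.58.1 (lmFit, eBayes) in R 4.3.3 over all tested probes with Benjamini-Hochberg adjustment, and permutation tests used SciPy 1.17.1. limma was tested on simulated data. Arrays were split on the mean z score of a marker list at the largest sum of squares between sides, at least 15 arrays a side, and the lymphocyte, keratinocyte and neutrophil splits were used. One title reads 399 where its source name reads 339, the latter was used, and 2 arrays share number 227. Named genes were the members, the 12 highest and 8 lowest genes by likeness, the 3 closest genes of each member, the 3 probes of smallest p for each remainder, and listed genes. The members and lists were chosen with earlier results of these data known. Alternatives were other scalings, filters and sets of arrays.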

Additional observations from a re-analysis of the deposited data

How the results depend on the processing

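The mean pairwise r of the members, 0.946, stayed between 0.936 and 0.957 under 11 of 12 alternatives, and in animals 1 to 90 alone it was 0.890. The mean r of Tpm3 with the others rose from 0.931 to 0.952 with the 97 arrays above a marker gap left out. Quantile normalization raised the SDs to 1.36 for Myl2, 1.42 for Tnnt1, 1.06 for Tnni1 and 1.38 for Tnnc1.

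Trends along animal number were the least stable results. Quantile normalization left Myl2 (-0.166), Tnnt1 (-0.159), Tnnc1 (-0.168) and Tpm3 probe 10024408920 (-0.136) past no threshold. Means of 10 neighbouring arrays cut the probes passing from 7103 to 1825, and the slopes of Myl2 (-0.193), Tnnt1 (-0.183), Tnni1 (-0.164), Tnnc1 (-0.198) and Tpm3 probes 10024399225 (-0.0437), 10024404523 (-0.0592) and 10024408920 (-0.165) no longer passed; that setting has 32 points. Without the 97 arrays 2199 probes passed, Tpm3 probe 10024399225 turned to 0.0048, and 10024404523 (-0.0371) and 10024408920 (-0.225) did not pass. Tpm3 probe 10024393599 came to pass with array medians subtracted (-0.103) and without 20 arrays of outlying SD (-0.118).

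Probes following a member numbered 5497 for Tnnt1, 4489 for Tnni1 and 4824 for Tpm3 after quantile normalization. For Tpm3 they numbered 5432 without the first principal component and 4464 without the 97 arrays. With 1 Tpm3 probe in place of the mean, an alternative chosen after seeing the data, they numbered 3200 (10024393599), 18068 (10024399225), 18485 (10024404523), 1910 (10024404657) and 4754 (10024408920), and those with an absolute r over 0.5 numbered 5408, 4899 and 0 for the middle 3. Probes following a remainder numbered 2606 for Tnnt1 and 554 for Tnni1 without the 97 arrays, and 7690 for Tnnt1, 4077 for Tnni1 and 10039 for Tpm3 with Tpm3 taken from its probe of largest SD. The cause of these moves was not tested. No paired analysis was possible because all arrays form 1 group. Without repeat arrays known to hold 1 RNA, technical error could not be set apart from differences between animals.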
